A study of Mus musculus with 6 samples.

Results

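The antioxidant defence genes of the lung before birth were described in whole lungs of WT and *Tnrc6a* null mouse embryos at E18.5, close to term. The set holds 10 genes, namely the superoxide dismutase genes *Sod1*, *Sod2* and *Sod3*, the catalase gene *Cat*, the glutathione peroxidase genes *Gpx1*, *Gpx2* and *Gpx3*, the peroxiredoxin gene *Prdx6*, the quinone reductase gene *Nqo1* and the haem oxygenase gene *Hmox1*. A gene was represented by its brightest probe set among those annotated to 1 gene symbol, and 9 of the 10 genes had such a probe set, of 19938 genes measured in all. *Prdx6*, which encodes a peroxidase and phospholipase of alveolar epithelium, had none and has no value here. Both genotypes were on a C57Bl/6 background. The null embryos carried the GW182gt/gt genotype, a β-galactosidase gene trap in both alleles of *Tnrc6a* (GW182), and the WT embryos were their littermates. The trap is carried by every cell of the embryo and is not restricted to a lung cell type. RNA of 3 WT and 3 null lungs was hybridised to Affymetrix whole-transcript mouse gene arrays, 1 embryo per array, and which embryos shared a litter is not labelled. The sample labels call the deposited values log2, but the base could not be settled from the values, so every level and difference below is on the deposited log scale and no fold is given.

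Oxygen metabolism produces superoxide, which superoxide dismutases convert to hydrogen peroxide, and catalase, glutathione peroxidases and peroxiredoxins then remove the peroxide. Glutathione peroxidases use reduced glutathione as their electron donor, and *Gpx1*, *Gpx2* and *Gpx3* encode selenoproteins with a selenocysteine in the active site. *Nqo1*, *Hmox1* and *Gpx2* are known targets of the transcription factor NRF2, which binds antioxidant response elements in DNA once it escapes its inhibitor KEAP1. Antioxidant enzymes are known to increase in the mammalian lung late in gestation, ahead of the exposure to air at birth.

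The promoters of *Gpx2* and *Gpx3* are shown here because these 2 genes of 1 enzyme family were the antioxidant genes whose values did not overlap between the genotypes, with the null lungs higher for *Gpx2* and lower for *Gpx3*, although neither passed the test after adjustment. The sequences are those of RefSeq on GRCm38.p6 and run 5′ to 3′ on the strand of the gene, from 250 bases before the annotated start to 50 bases from it. That of *Gpx2* lies at chr12:76795505-76795804 on the minus strand and that of *Gpx3* at chr11:54902604-54902903 on the plus strand. Capitals mark each match to TGANNNNGC, the short core of the antioxidant response element, on either strand.
Gpx2: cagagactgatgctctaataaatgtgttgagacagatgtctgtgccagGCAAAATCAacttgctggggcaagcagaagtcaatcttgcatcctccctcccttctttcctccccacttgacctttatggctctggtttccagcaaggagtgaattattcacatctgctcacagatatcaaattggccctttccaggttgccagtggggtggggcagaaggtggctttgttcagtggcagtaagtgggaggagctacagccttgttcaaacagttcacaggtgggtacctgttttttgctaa
Gpx3: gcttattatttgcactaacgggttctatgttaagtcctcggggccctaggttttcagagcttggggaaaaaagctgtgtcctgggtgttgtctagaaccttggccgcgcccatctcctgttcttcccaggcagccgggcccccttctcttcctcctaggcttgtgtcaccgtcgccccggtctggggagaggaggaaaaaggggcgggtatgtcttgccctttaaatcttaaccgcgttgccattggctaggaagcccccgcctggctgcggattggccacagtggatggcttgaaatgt
The *Gpx2* promoter held 1 match, on the opposite strand, and the *Gpx3* promoter held none in this window. Over the 32851 promoters of the same length in the RefSeq table, 41.3% held a match to these letters. The long core TGACNNNGC, each match of which also matches the short one, was found in 12.4% of promoters. The table held promoters of 7 of the 10 genes, *Sod1*, *Sod2*, *Cat*, *Gpx1*, *Gpx2*, *Gpx3* and *Nqo1*, and not of *Sod3*, *Prdx6* and *Hmox1*. Among the 7, the long core was matched in *Sod1* only, and the short core in *Sod1* and *Gpx2*. A match is a description of letters and was not tested as a binding site.

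The state of the arrays and the check of the labels came first. *Tnrc6a* itself spanned 7.13 to 7.38 in WT and 5.04 to 5.45 in null lungs, and it fell by 1.93 (SE 0.128, adjusted p = 0.00312 from limma over all genes). The lung label was met by its defining markers, with the surfactant gene *Sftpc* at 11.64 to 11.82 and the alveolar type 1 gene *Ager* at 10.16 to 10.42 over the 6 lungs. WT replicate 1 and null replicate 3 stood apart from the others. Each correlated more closely with the other across genes (r = 0.992) than with any lung of its own genotype (0.979 to 0.988), and no label names a batch that they share. Liver genes also marked null replicate 3, and *Alb*, which encodes albumin, lay at 7.61 there against 4.78 to 6.26 in the other lungs. The difference between genotypes varied with signal over all genes, with a median of 0.15 in the dimmest and of -0.06 in the brightest of 10 signal classes that hold like numbers of genes, and the class of a gene is given where it bears on the value.

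Among the 9 measured antioxidant genes, *Gpx2* was higher and *Gpx3* was lower in every null lung than in every WT lung, and the other 7 overlapped between the genotypes. No antioxidant gene passed an adjusted p of 0.05 from limma over all genes, where the call rate was 0.00502% (*Tnrc6a* alone). At an unadjusted p under 0.05 lay 2 of the 9 genes, against 5.42% of all genes tested, of which 45.3% were higher in the null lungs (22.8% with median centring). By direction this was 1 antioxidant gene higher, *Gpx2*, against 2.46% of all genes, and 1 lower, *Gpx3*, against 2.96%. The methods' t-test called 5.53% of all genes at that level. The genotypes did not overlap for the same 2 antioxidant genes, against 10.2% of all genes (4.67% with the null lungs higher and 5.51% with them lower). On average 3 of the 9 genes had a higher mean in null lungs and 6 a lower one, and their median difference was -0.06, against 0.00 over all genes. *Sod1*, *Sod2*, *Cat*, *Gpx1* and *Gpx3* belonged to the brightest signal class, where the median difference over all its genes was also -0.06. The plot of signal by lung shows each value.

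**Figure D1:**
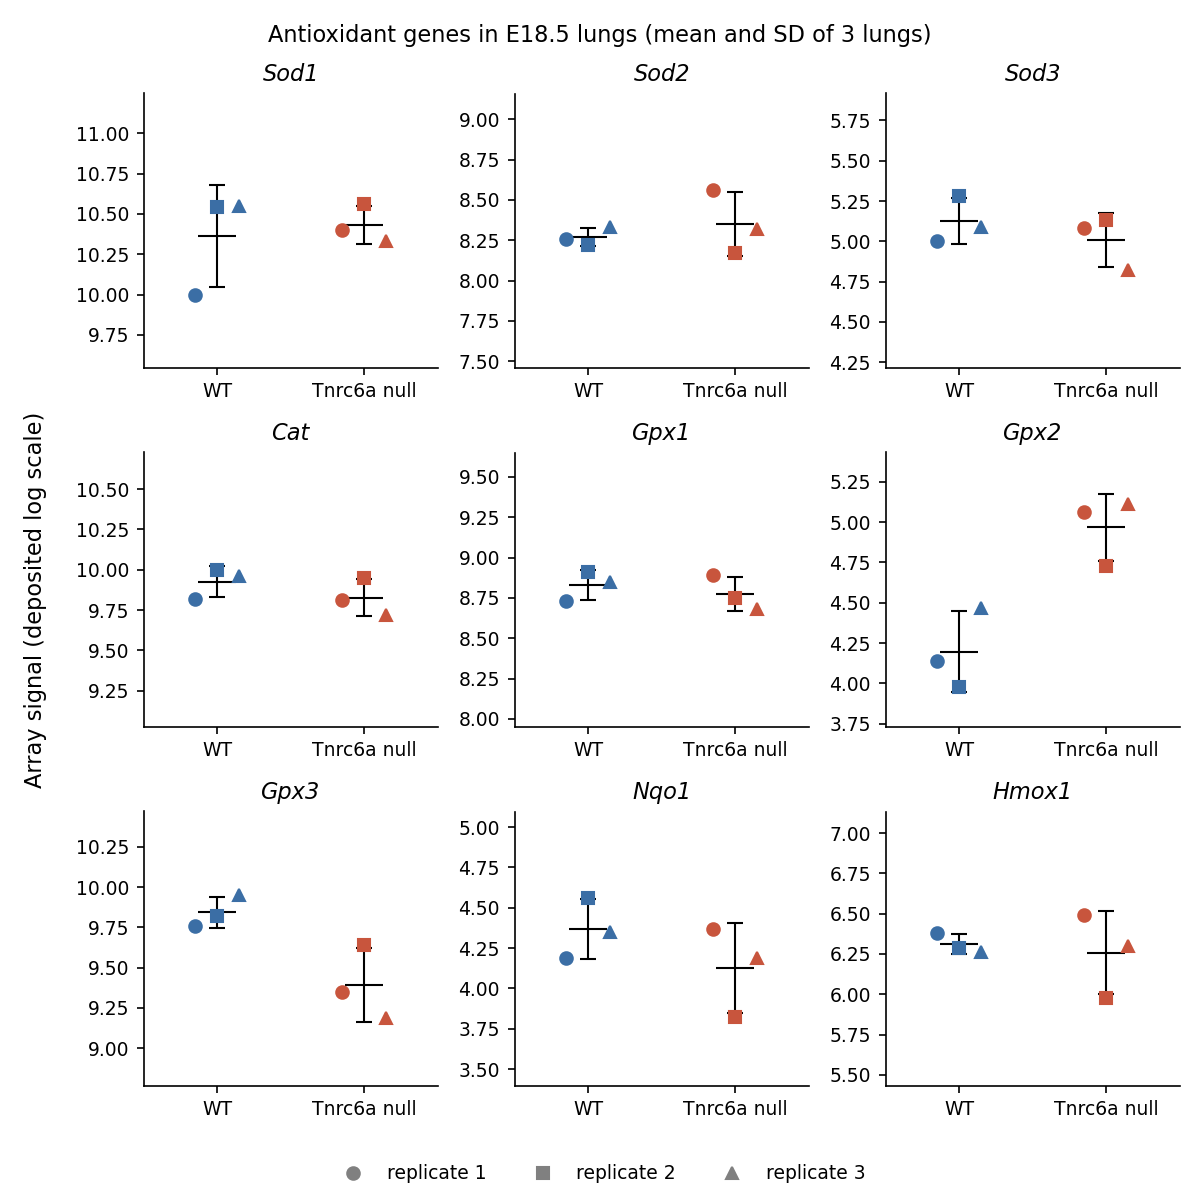
Array signal of the 9 measured antioxidant genes in E18.5 lungs. The vertical axes are on the deposited log scale and each spans the same range, each point is 1 lung (its shape gives the replicate number of the labels), and bars give the mean ± SD (n = 3). Null lungs lie at 4.73 to 5.11 for *Gpx2*, above the WT lungs at 3.98 to 4.47, and at 9.19 to 9.64 for *Gpx3*, below the WT lungs at 9.76 to 9.95.

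*Gpx2* encodes the gastrointestinal glutathione peroxidase, an enzyme of epithelial cells, and it differed most between the genotypes among the 9 genes. Its signal was 4.14, 3.98 and 4.47 in WT replicates 1 to 3 and 5.06, 4.73 and 5.11 in null replicates 1 to 3. All 3 null lungs lay above the highest WT lung, WT replicate 3. The mean went from 4.20 ± 0.25 (SD, n = 3) to 4.97 ± 0.21 (SD, n = 3), a difference of 0.77 with a 95% interval of 0.40 to 1.14 (adjusted p = 0.89 from limma). Its unadjusted p of 0.00121 from limma ranked 18 among all 19938 genes, and it missed the threshold after adjustment. *Gpx2* belonged to signal class 4, counted from the dimmest, in which the median difference was 0.02. The difference ranged from 0.66 to 0.91 when each lung was left out in turn, and it was 0.67 when both lungs that stood apart were left out.

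*Gpx3* encodes the secreted glutathione peroxidase of plasma and extracellular fluid. Its signal was 9.76, 9.82 and 9.95 in WT replicates 1 to 3 and 9.35, 9.64 and 9.19 in null replicates 1 to 3. The lowest WT lung lay above the highest null lung, null replicate 2, and null replicate 3 lay lowest. The mean went from 9.84 ± 0.10 (SD, n = 3) to 9.39 ± 0.23 (SD, n = 3), a difference of -0.45 with a 95% interval of -0.71 to -0.19 (adjusted p = 0.89 from limma). Its unadjusted p was 0.00394 from limma, which ranked 62 among all genes. The brightest class, to which it belonged, had a median difference of -0.06, and 10.4% of that class lay at an unadjusted p under 0.05. Without null replicate 3 the difference was -0.35, and without both lungs that stood apart it was -0.39. For both *Gpx2* and *Gpx3* the difference kept its direction and an unadjusted p under 0.05 under all alternatives that gave it a value, 15 for *Gpx2* and 16 for *Gpx3*.

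*Gpx1* encodes the cytosolic glutathione peroxidase found in most cells. It lay at 8.73, 8.91 and 8.85 in WT replicates 1 to 3 and 8.89, 8.75 and 8.68 in null replicates 1 to 3. The genotypes were interleaved, and the range over the 6 lungs, 0.23, was the narrowest of the 9 genes. The difference was -0.06 with a 95% interval of -0.25 to 0.14 (adjusted p = 0.944 from limma) and -0.01 without null replicate 3, and the interval leaves out a difference as large as that of *Gpx2*. *Cat* encodes catalase, which breaks down hydrogen peroxide in peroxisomes. It lay at 9.82, 10 and 9.96 in WT replicates 1 to 3 and 9.81, 9.95 and 9.72 in null replicates 1 to 3. Null replicate 3 was lowest and the other null lungs lay within or just under the WT range. Its difference was -0.10 with a 95% interval of -0.30 to 0.10 (adjusted p = 0.905 from limma), and it was -0.05 without null replicate 3.

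The superoxide dismutases act in the cytosol (*Sod1*), in the mitochondrion (*Sod2*) and outside the cell (*Sod3*), and all 3 genes overlapped between the genotypes. *Sod1* lay at 10, 10.54 and 10.55 in WT replicates 1 to 3 and 10.40, 10.56 and 10.33 in null replicates 1 to 3. WT replicate 1 stood below all other lungs, and the sign of the difference rested on it. The difference of *Sod1* was 0.07 with a 95% interval of -0.27 to 0.40 (adjusted p = 0.967 from limma), and it was -0.12 without WT replicate 1. *Sod2* lay at 8.26, 8.22 and 8.33 in WT replicates 1 to 3 and 8.56, 8.17 and 8.32 in null replicates 1 to 3. Null replicate 1 was the highest and null replicate 2 the lowest of all 6 lungs. Its difference was 0.08 with a 95% interval of -0.15 to 0.31 (adjusted p = 0.936 from limma), and it was -0.03 without null replicate 1. *Sod3* lay at 5.0, 5.28 and 5.09 in WT replicates 1 to 3 and 5.08, 5.13 and 4.82 in null replicates 1 to 3. Null replicate 3 was lowest and WT replicate 2 highest. The difference of *Sod3* was -0.11 with a 95% interval of -0.40 to 0.18 (adjusted p = 0.928 from limma), and it was -0.02 without null replicate 3.

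*Nqo1* encodes the quinone reductase that prevents redox cycling of quinones. It lay at 4.19, 4.56 and 4.35 in WT replicates 1 to 3 and 4.37, 3.82 and 4.19 in null replicates 1 to 3. Null replicate 2 was lowest, and the other null lungs lay inside the WT range. The difference was -0.24 with a 95% interval of -0.63 to 0.15 (adjusted p = 0.897 from limma), in signal class 3, where the median difference was 0.06. Without null replicate 2 it was -0.09. *Hmox1* encodes the inducible haem oxygenase, which degrades haem to biliverdin, iron and carbon monoxide. It lay at 6.38, 6.29 and 6.26 in WT replicates 1 to 3 and 6.49, 5.98 and 6.30 in null replicates 1 to 3. The null lungs took both the highest and the lowest value, so the WT range lay within theirs. Its difference was -0.05 with a 95% interval of -0.35 to 0.24 (adjusted p = 0.97 from limma), and it was 0.09 without null replicate 2. *Nqo1* and *Hmox1* were both lowest in null replicate 2.

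**Figure D2:**
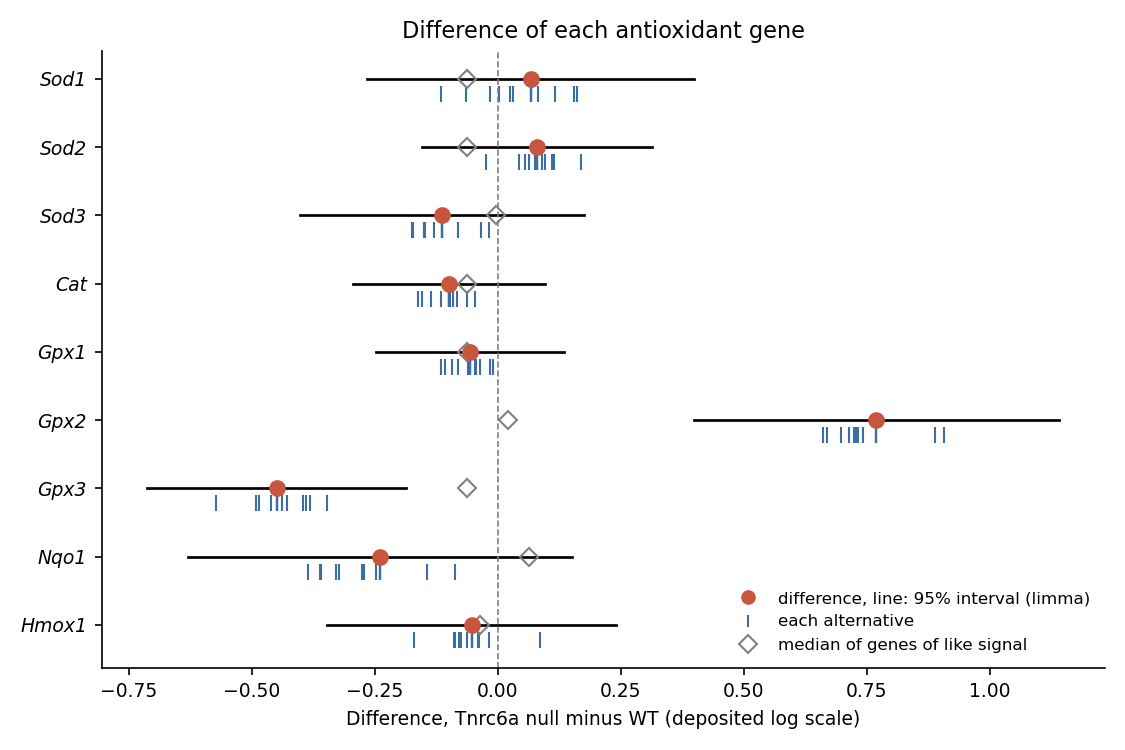
Difference of each antioxidant gene between the genotypes. The horizontal axis is *Tnrc6a* null minus WT on the deposited log scale. Circles are the differences and lines their 95% intervals from limma (3 lungs per genotype), ticks are the differences under each alternative treatment of the data, and diamonds are the median difference of the signal class. The intervals of *Gpx2* (0.40 to 1.14) and *Gpx3* (-0.71 to -0.19) do not include 0, and those of the other 7 genes do.

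Null replicate 3 held the lowest value of 4 of the 9 genes (*Sod3*, *Cat*, *Gpx1* and *Gpx3*) and null replicate 2 that of 3 (*Sod2*, *Nqo1* and *Hmox1*). WT replicate 2 held the highest value of 4 genes. In null replicate 3, *Gpx2* was at its highest and *Gpx1* and *Gpx3* were at their lowest. Deviations from each gene's own mean were most alike for *Sod3* and *Cat*, which differed by 0.06 on average over the 6 lungs. *Gpx2* had the widest spread of the set, and the genes of the whole table most like it over the 6 lungs were the microRNA gene *Mir380*, the embryonic globin gene *Hba-x* and *Krtcap2*, which encodes a subunit of the oligosaccharyltransferase complex. Their deviations differed from those of *Gpx2* by 0.09, 0.12 and 0.14 on average. Because these genes were chosen by likeness to *Gpx2* over the same lungs, their separation by genotype follows from the choice. *Mir380* lay at 4.67 to 5.13 in the WT lungs and 5.47 to 5.72 in the null lungs. *Hba-x* lay at 5.32 to 5.63 and 5.82 to 6.47, and *Krtcap2* at 8.50 to 8.60 and 8.88 to 9.34. None of the 3 passed after adjustment (adjusted p = 0.89 from limma for each).

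**Figure D3:**
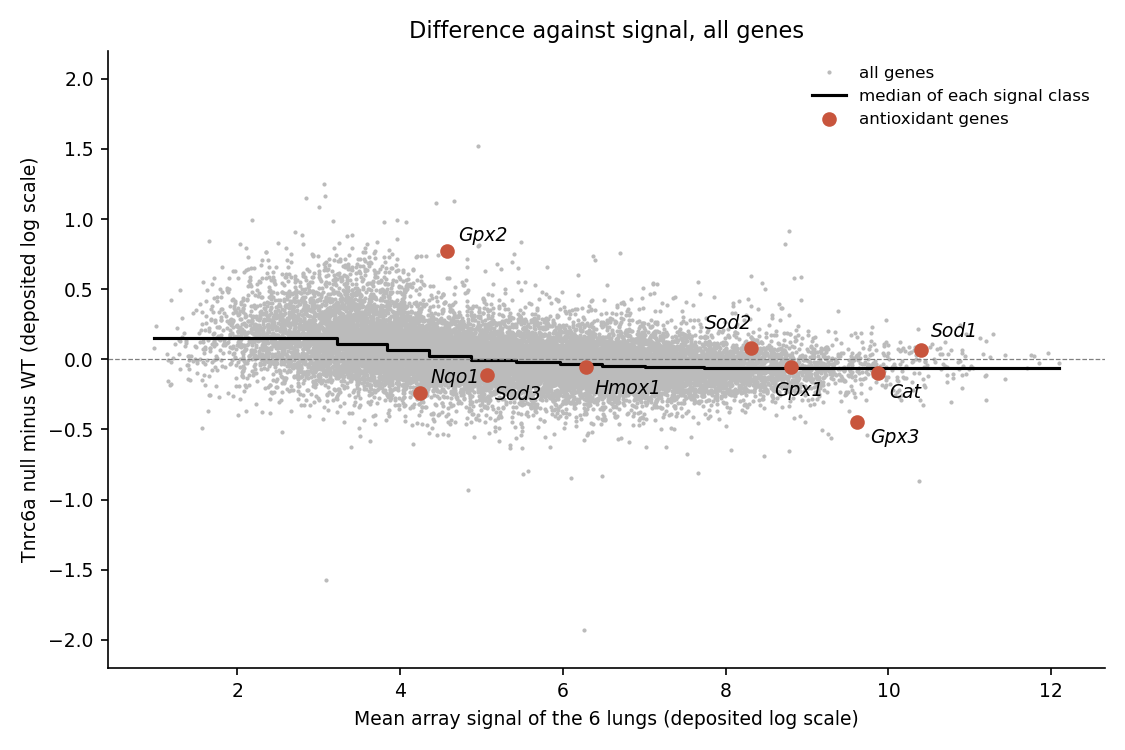
Difference between the genotypes against signal for all 19938 genes. The horizontal axis is the mean signal of the 6 lungs and the vertical axis is *Tnrc6a* null minus WT, both on the deposited log scale, grey points are genes, the black line is the median of each signal class, and red points are the 9 antioxidant genes. The median falls from 0.15 to -0.06 with signal, and *Gpx2* at 0.77 and *Gpx3* at -0.45 lie away from the line on opposite sides.

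The other genes of the redox system were taken from 10 lists, which hold 80 genes besides the set, 76 of them measured. Of these, 31 had a higher and 45 a lower mean in null lungs, with a median difference of -0.03. None passed an adjusted p of 0.05 from limma, and 5 lay at an unadjusted p under 0.05 (6.58%, against 5.42% of all genes), 4 lower and 1 higher. The genotypes did not overlap in 10 of the 76 (13.2%, against 10.2% of all genes).

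Superoxide and peroxide are made by the NADPH oxidases and by xanthine oxidoreductase, and 2 of the 12 measured genes of this list lay at an unadjusted p under 0.05, in opposite directions. *Nox4*, the constitutively active oxidase of mesenchymal and vascular cells, lay at 7.03, 7.0 and 7.0 in WT replicates 1 to 3 and 6.77, 6.85 and 6.44 in null replicates 1 to 3. All null lungs were below the WT lungs, which differed little from each other. The difference was -0.32 (SE 0.112, adjusted p = 0.89 from limma), and -0.20 without null replicate 3. *Nox4* belonged to signal class 8, with a median difference of -0.05, and its unadjusted p was under 0.05 in 15 of 16 alternatives, but not by the methods' t-test. *Nox3*, an oxidase known from the inner ear, was dim, at 3.47, 3.62 and 3.62 in WT replicates 1 to 3 and 4.13, 4.17 and 3.68 in null replicates 1 to 3. Its difference was 0.42 (SE 0.165, adjusted p = 0.89 from limma), and its null lungs lay above its WT lungs, with null replicate 3 closest to them. *Nox3* belonged to signal class 2, in which the median difference was 0.11, and its unadjusted p was under 0.05 in 8 of 15 alternatives.

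The regulators of NRF2 were lower on average in 8 of the 9 measured genes, with a median difference of -0.13. *Cul3*, the ubiquitin ligase scaffold with which KEAP1 removes NRF2, lay at 8.57, 8.40 and 8.50 in WT replicates 1 to 3 and 8.27, 8.30 and 8.35 in null replicates 1 to 3. *Bach1*, a repressor that competes with NRF2 at its sites, lay at 7.46, 7.49 and 7.60 in the WT and 7.25, 7.33 and 7.41 in the null replicates. Neither gene overlapped between the genotypes. The differences were -0.18 for *Cul3* (SE 0.074) and -0.19 for *Bach1* (SE 0.081), both with an adjusted p of 0.89 from limma, and these were the 2 genes of the list at an unadjusted p under 0.05. Neither reached that level after quantile normalization, with eBayes without trend or with the replicate number as a block, and each kept it in 9 of 16 alternatives. *Cul3* belonged to signal class 10 and *Bach1* to class 9, where the median difference was -0.06 in both and the genes at that level numbered 176 lower and 32 higher in class 10 and 127 lower and 25 higher in class 9. The difference of *Nfe2l2*, which encodes NRF2, was -0.08 (SE 0.079), and that of *Keap1* was -0.14 (SE 0.126).

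Of 13 measured genes in the list of NRF2 targets, which does not hold *Gpx2*, 5 were higher and 8 lower, with a median difference of -0.04, and 1 lay at an unadjusted p under 0.05. This was *Fth1*, which encodes the heavy chain of the iron store ferritin and also stands in the list of haem and metal handling. It lay at 10.26, 10.11 and 10.13 in WT replicates 1 to 3 and 9.96, 9.88 and 10 in null replicates 1 to 3, with no overlap. Its difference was -0.22 (SE 0.074, adjusted p = 0.89 from limma), in signal class 10. The unadjusted p of *Fth1* was under 0.05 in 15 of 16 alternatives, but not without null replicate 2. The mouse genome holds processed copies of ferritin genes, and whether the probe set reads them was not tested. In the list of haem and metal handling, 6 of 10 genes were lower, with a median difference of -0.01. The difference of the transferrin receptor gene *Tfrc* was 0.32 (SE 0.173), from 5.90 to 6.04 in the WT lungs and from 5.92 to 6.69 in the null lungs, and it was 0.13 without null replicate 3 and 0.52 without null replicate 2.

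**Figure D4:**
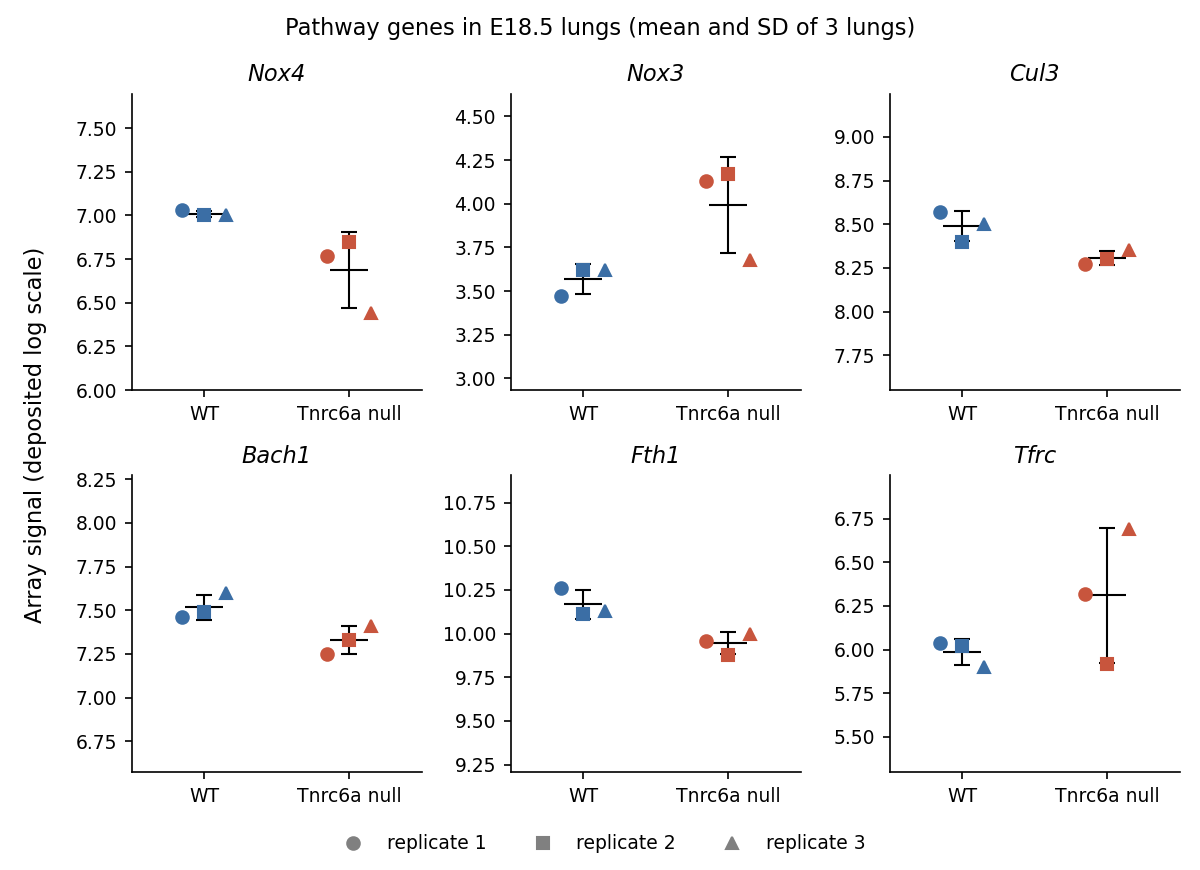
Array signal of 6 genes of the redox lists in E18.5 lungs, drawn as for the antioxidant genes above with the deposited log scale on the vertical axes, 1 point per lung, and bars for the mean ± SD (n = 3). Null lungs are below WT lungs for *Nox4*, *Cul3*, *Bach1* and *Fth1* and above them for *Nox3*, and the genotypes overlap for *Tfrc*.

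Peroxide removal beyond the set is carried by other glutathione peroxidases and peroxiredoxins, and *Gpx2* and *Gpx3* remained the 2 genes of this list, of 11 measured, at an unadjusted p under 0.05. The difference of *Gpx4*, whose enzyme reduces lipid peroxides in membranes, was -0.05 (SE 0.096), and that of *Prdx2*, an abundant peroxiredoxin of red cells, was 0.12 (SE 0.085). No gene reached that level among 8 of glutathione synthesis and recycling (median -0.03), 9 of the thioredoxin system (median 0.07, but 0.01 without WT replicate 1 and -0.02 without both lungs that stood apart), 12 glutathione transferases (median -0.04) and 6 of selenoprotein synthesis (median 0.00). The smallest p in the first of these lists was shared by *Slc7a11*, the cystine transporter gene, at 0.22 (SE 0.227) and *Gclm*, the modifier subunit of the enzyme that starts glutathione synthesis, at -0.07 (SE 0.076). Leaving out 1 lung moved *Slc7a11* to 0.03 (null replicate 1), 0.06 (WT replicate 1) or 0.43 (null replicate 3), and left *Gclm* at -0.03 without WT replicate 3. In the thioredoxin system *Glrx*, which encodes glutaredoxin, stood at -0.14 (SE 0.080) and *Txn1*, which encodes thioredoxin, at 0.18 (SE 0.110), or 0.10 without null replicate 3 and 0.28 without null replicate 2. Among the transferases *Gstm2* stood at -0.21 (SE 0.105), or -0.11 without WT replicate 1, and *Gstm1* at -0.17 (SE 0.092), or -0.09 without null replicate 1. Of the selenoprotein list, *Sephs2*, which makes the selenium donor, stood at -0.20 (SE 0.120), or -0.10 without WT replicate 3. The elongation factor gene *Eefsec* stood at 0.13 (SE 0.10), at 0.04 without null replicate 3 and at 0.00 without both lungs that stood apart.

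**Figure D5:**
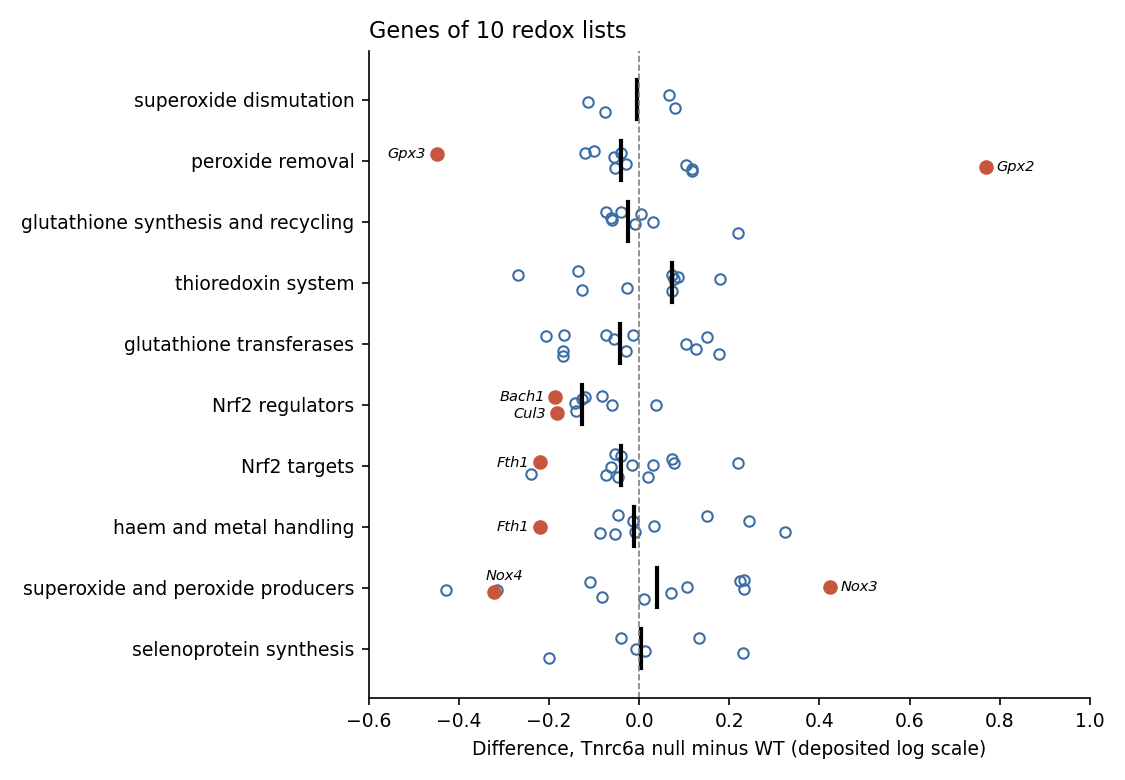
Differences of the genes of 10 redox lists. The horizontal axis is *Tnrc6a* null minus WT on the deposited log scale, each circle is 1 gene, filled and named where its unadjusted p from limma was under 0.05, black bars are the median of a list, and genes that stand in several lists are drawn in each. The medians lie between -0.13 for the NRF2 regulators and 0.07 for the thioredoxin system, the latter 0.01 without WT replicate 1.

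Markers of the cells that make up whole lung varied between lungs. No marker gene passed an adjusted p of 0.05 from limma, and the list means were not tested. In whole tissue fewer cells of a type and less RNA per cell cannot be told apart. Macrophage markers were lower on average in all 9 genes, with a list mean of 6.04 to 6.47 in the WT lungs and 5.85 to 6.25 in the null lungs. *Mrc1*, at a difference of -0.42, and *Adgre1*, at -0.51, had an unadjusted limma p under 0.05. Of the 9 genes *Mrc1* alone did not overlap between the genotypes. Without null replicate 3, or without WT replicate 3, 6 of the 9 were lower. Club cell markers were lower on average in 3 of 3, with a list mean of 9.17 to 9.27 in the WT lungs and 8.75 to 9.16 in the null lungs, lowest in null replicate 3, and in 2 of 3 without that lung. Of these *Cyp2f2*, at a difference of -0.32, did not overlap and had an unadjusted limma p under 0.05, but not by the methods' t-test. Endothelial markers were lower on average in 5 of 5, with list means that did not overlap, at 9.09 to 9.14 against 8.93 to 8.98. In 4 of 5 they were lower with array weights, without WT replicate 1, without null replicate 2 or without both lungs that stood apart. *Cdh5*, *Pecam1* and *Tie1* of this list did not overlap between the genotypes and had an unadjusted limma p under 0.05. Each had an adjusted p of 0.89 from limma. After quantile normalization, with eBayes without trend or with the replicate number as a block, 1 of the 5 genes had an unadjusted p under 0.05. Over all genes 10.2% did not overlap and 5.42% lay under that unadjusted p, and the latter share was 10.4% in signal class 10. All 5 endothelial genes belonged to signal class 10. Alveolar type 1 markers were lower on average in 5 of 5, at 9.22 to 9.39 against 9.05 to 9.22, and all belonged to signal classes 9 and 10. *Ager* and *Cav1* did not overlap between the genotypes, and *Cav1* and *Aqp5* had an unadjusted limma p under 0.05. After quantile normalization or with eBayes without trend, none of the 5 genes lay under that p. List means also did not overlap for markers of smooth muscle and mesenchyme, lower in 5 of 6 at 8.40 to 8.45 against 8.28 to 8.37. All 6 genes belonged to signal classes 9 and 10, and each overlapped between the genotypes. Those of multiciliated cell markers did not overlap either, lower in 5 of 5 at 5.82 to 5.92 against 5.67 to 5.76. Of these genes only *Rsph1* did not overlap, at a difference of -0.46, and the others lay between -0.07 and -0.04. With array weights, or without WT replicate 1, 4 of 5 were lower. Alveolar type 2 markers were lower in 2 of 6, at 10.04 to 10.23 against 9.97 to 10.24, but in 5 of 6 with median centring or without null replicate 2, and in 4 of 6 without WT replicate 1, WT replicate 3 or null replicate 1. The erythroid list had 4 measured genes of 12, without the globins, and lay at 5.42 to 5.89 against 5.75 to 5.84. Mesothelial markers lay at 6.98 to 7.34 against 7.04 to 7.25, and heart markers at 5.92 to 6.08 against 5.70 to 6.23. Liver markers spanned 4.67 to 5.35 in WT and 4.61 to 6.21 in null lungs, highest in null replicate 3. No list held a gene at 0, the lowest value of any marker being 3.66. The part of these cells in the differences of *Gpx2*, *Gpx3* and *Nox4* was not tested.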

How the data were processed

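RNA of whole E18.5 lungs, 3 WT and 3 *Tnrc6a* null, was profiled by the authors on Affymetrix Mouse Gene 1.0 ST arrays, 1 embryo each. The authors deposited 1 value per probe set and lung on a scale that the labels call log2. The submitters' processing notes name MAS5, with no version or settings given in the sources used. The array medians lay between 4.98 and 5.03, so the values were used as deposited. Of 35045 probe sets, 21789 carried 1 gene symbol in the array annotation. Of these, 21698 were named by Entrez ID through RefSeq on GRCm38.p6. The brightest probe set stood for a gene, which left 19938 genes, dim ones included. Each of the 9 measured antioxidant genes had 1 such probe set. Groups and replicate numbers came from the sample titles.

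*Tnrc6a* null was compared with WT by limma 3.58.1 under R 4.3.3, with eBayes allowed to follow signal (trend), with Benjamini-Hochberg adjustment over all genes and a threshold of 0.05. The procedure was tested on simulated data. The simulated noise was independent between lungs and genes, so it held no lungs that stood apart together as these did. Tables and plots were made with Python 3.11.15, pandas 2.3.3 and matplotlib 3.10.9. With 3 lungs a side, the smallest p of an exact permutation test (two-sided) is 0.1. Precision is limited by the number of arrays, and signal over background was not measured. The antioxidant genes and the gene lists were chosen with earlier results of these data known. Named besides the set were the genes of each redox list at an unadjusted p under 0.05, filled up to 2 by the smallest p. The 3 genes most like the member of widest spread were named too. This rule did not cover the marker lists. *Sftpc* and *Ager* (tissue check), *Alb*, *Nfe2l2*, *Keap1*, *Gpx4*, *Prdx2* and, in the closing section, *Mt1* and *Mt2* were named after their values were seen. So were the marker genes *Cdh5*, *Pecam1*, *Tie1*, *Mrc1*, *Adgre1*, *Cyp2f2*, *Cav1*, *Aqp5* and *Rsph1*. The alternatives were quantile normalization, array weights, median centring, robust eBayes, averaging the probe sets of a gene, genes above the median signal, eBayes without trend, a replicate block, the methods' t-test and leaving out each lung. Leaving out both WT replicate 1 and null replicate 3 was added after the data were seen. The promoters were read from a RefSeq table.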

Additional observations from a re-analysis of the deposited data

How the results depend on the processing

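The differences of *Sod3*, *Cat*, *Gpx1*, *Gpx2*, *Gpx3* and *Nqo1* kept their direction under all alternatives that gave them a value, and no antioxidant gene passed an adjusted p of 0.05 under any (smallest adjusted p = 0.122 from limma, for *Gpx3* without both lungs that stood apart, in a range of 0.122 to 0.999 over its alternatives). The difference of *Sod1* turned to -0.0151 with array weights and to -0.065 without both of those lungs, and ranged from -0.115 to 0.16 without 1 lung. Without 1 lung that of *Sod2* ranged from -0.025 to 0.17 and that of *Hmox1* from -0.17 to 0.085. *Gpx2*, *Nqo1* and *Sod3* have no value among genes above the median signal, so 1 antioxidant gene lay at an unadjusted p under 0.05 there. *Nqo1* lay at an unadjusted p of 0.0394 from limma with array weights. With the replicate number as a block the difference of *Gpx2* was 0.77 and that of *Gpx3* -0.45, and the same number of antioxidant genes, 2, lay at an unadjusted p under 0.05. The labels do not say whether the numbers pair the lungs. Deviations from the genotype mean correlated at -0.30, 0.36 and -0.16 for lungs with the same number, and at 0.54 for WT replicate 1 and null replicate 3. Only null replicate 2 correlated best with the lung of its own number. These values cannot show whether lungs were paired, because each genotype was centred on its own 3 lungs. Over all genes, 2 passed adjustment with array weights, 0 with the methods' t-test (1102 at an unadjusted p under 0.05), 0 to 1 without 1 lung and 23 without both lungs that stood apart. At an unadjusted p under 0.05 lay 684 genes of those above the median signal, 2447 with array weights, 614 to 1730 without 1 lung and 2895 without both lungs. Of the genes at that level 45.3% were higher in the null lungs, against 22.8% with median centring, 62.4% with eBayes without trend and 22.1% among genes above the median signal. *Tnrc6a* missed adjustment without WT replicate 3 (limma, adjusted p = 0.0552) and by the methods' t-test (adjusted p = 0.551). The number of arrays limits what can be called, and dim genes such as *Gpx2*, *Nqo1* and *Nox3* were not tested against background.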

Other observations

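The metallothionein genes *Mt1* and *Mt2*, whose products bind zinc and copper and scavenge radicals, were highest in null replicate 3. *Mt1* lay at 8.03, 7.82 and 7.91 in WT replicates 1 to 3 and 7.84, 7.69 and 8.68 in null replicates 1 to 3. *Mt2* lay at 8.45, 8.27 and 8.50 in WT replicates 1 to 3 and 8.53, 7.94 and 9.48 in null replicates 1 to 3. The genotypes overlapped for both genes, at a difference of 0.15 (SE 0.223) and of 0.24 (SE 0.315). The same lung was highest for *Tfrc* and for the liver genes *Alb*, *Afp* and *Apoa1*, with *Afp* at 5.10 against 3.84 to 4.23 in the other lungs and *Apoa1* at 5.93 against 5.0 to 5.57. Whether RNA of liver reached this sample was not tested.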
